A study of Mus musculus with 6 samples.

Results

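Interferon-stimulated and interferon-inducible GTPase genes were followed as a set of 41 genes, picked by symbol from the 54532 genes of the deposited expression table; every symbol matched 1 gene. They comprise 4 sensors of nucleic acid, 3 transcription factors, 2 feedback inhibitors, 19 antiviral effectors, 8 guanylate-binding proteins, 4 immunity-related GTPases and 1 protease inhibitor. The cells were macrophages grown from bone marrow of the inbred mouse strain C57BL/6J. In the CCL3 group, 3 libraries came from cells cultured for 7 days and then for 3 days with recombinant CCL3, a chemokine; the design text can also be read as CCL3 having been present during the first culture. The control group also had 3 libraries, and the labels leave unsaid whether its cells were kept for the same additional days and with what vehicle. The series title places the work in hepatocellular carcinoma and macrophage antigen presentation, but the labels name macrophages as the only cells of these libraries. Nothing says whether libraries of a group came from separate mice or cultures. The p-values therefore reflect the spread among these libraries alone, and that spread may be technical.

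Type I interferons bind a receptor made of IFNAR1 and IFNAR2, whose kinases JAK1 and TYK2 phosphorylate STAT2 and other signal transducers. With IRF9, STAT2 is part of a factor that binds interferon-stimulated response elements and switches on genes such as Isg15, Ifit1 and Oas2. Interferon-gamma acts through IFNGR1 and IFNGR2 and leads to binding at gamma-activated sites, which induces Irf1, guanylate-binding proteins and immunity-related GTPases. Macrophages keep a low tonic level of many of these genes without infection.

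Promoters of many members hold these elements. Windows with a match are shown for some index members and some of the most abundant members, so that the elements behind the group's name can be seen. The sequences are RefSeq's, build GRCm38.p6, read 5′ to 3′ on the gene's strand and ending at the base before the transcription start. Capitals mark the core of an interferon-stimulated response element (GAAA, any 2 bases, GAAA, or on the other strand TTTC, any 2 bases, TTTC) or of a gamma-activated site (TTCNNNGAA, the same on both strands).
Isg15 (chr4:156200819-156200948, minus strand): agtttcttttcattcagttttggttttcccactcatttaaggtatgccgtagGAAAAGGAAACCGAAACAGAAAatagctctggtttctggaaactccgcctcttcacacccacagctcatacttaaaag
Ifit1 (chr19:34640759-34640888, plus strand): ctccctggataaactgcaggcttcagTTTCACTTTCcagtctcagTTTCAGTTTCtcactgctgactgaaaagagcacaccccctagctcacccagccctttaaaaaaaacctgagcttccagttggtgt
Oas1a (chr5:120907526-120907655, minus strand): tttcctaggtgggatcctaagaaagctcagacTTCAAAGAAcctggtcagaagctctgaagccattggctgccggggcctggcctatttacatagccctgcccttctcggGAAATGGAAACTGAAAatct
Oas3 (chr5:120777660-120777789, minus strand): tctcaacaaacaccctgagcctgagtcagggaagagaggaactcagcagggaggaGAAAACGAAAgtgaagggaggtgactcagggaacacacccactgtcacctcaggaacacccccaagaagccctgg
Gbp2 (chr3:142620533-142620662, plus strand): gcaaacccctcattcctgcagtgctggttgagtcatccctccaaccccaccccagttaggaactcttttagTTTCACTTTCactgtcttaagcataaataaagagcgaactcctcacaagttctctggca
Igtp (chr11:58199426-58199555, plus strand): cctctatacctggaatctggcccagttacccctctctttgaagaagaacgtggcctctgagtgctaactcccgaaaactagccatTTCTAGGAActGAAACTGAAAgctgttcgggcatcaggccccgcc
Irf1 (chr11:53769884-53770013, plus strand): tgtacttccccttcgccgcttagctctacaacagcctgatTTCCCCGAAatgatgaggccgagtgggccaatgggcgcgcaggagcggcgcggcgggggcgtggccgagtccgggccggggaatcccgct

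Isg15 has 3 overlapping matches to the response element, while Oas1a has 2 that overlap close to the start and a separate gamma-activated match farther upstream. In Igtp both kinds lie side by side, and in Irf1 only the gamma-activated letters were found. Promoter windows of 300 bases were on hand for 29 members. Of these 29 genes, 20 held the response element core in at least 1 window, or 21 of 33 windows (63.6%), against 3.44% of all 32851 windows in the table. The gamma-activated letters were in 8 of 33 member windows (24.2%), against 8.3% of all windows. Irf7, Cmpk2, Ifi44, Oasl1, Oasl2 and Xaf1 had no match of either kind, and neither did another window of Irf1, which is not shown. For 12 members no window was on hand. A match of letters is a description of the sequence and not evidence of binding in these cells.

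Macrophage genes were abundant in all libraries, with Csf1r, the receptor of macrophage colony-stimulating factor, at 873, 703 and 559 FPKM in CCL3 libraries 1 to 3 and 843, 922 and 663 FPKM in control libraries 1 to 3. FPKM is the number of fragments scaled to gene length and to a library-wide divisor. Fragments recovered from the deposited values totalled 17399194 to 18058494 per CCL3 library and 17913283 to 18609737 per control library. Of the T and NK cell markers, cells that make interferon-gamma, 0 of 12 reached a mean of 1 FPKM, and their summed level was 0.348 to 0.867 FPKM in CCL3 libraries and 0.530 to 0.742 FPKM in control libraries; Cd3g, Ncr1, Gzma, Prf1 and Eomes were listed at 0 throughout. Among plasmacytoid dendritic cell markers, cells that make type I interferon, Siglech was at or below 0.258 FPKM in every library, Ccr9 and Klk1 were listed at 0 in the 3 CCL3 libraries, and 1 of 7 markers could be tested and was higher with CCL3, Cox6a2 (log2 fold change 1.36 ± 0.24 SE, adjusted p = 0.00633, limma). That list's summed level was 4.26 to 9.11 FPKM in CCL3 libraries and 2.35 to 2.75 FPKM in control libraries. Conventional dendritic cell markers summed to 7.93 to 9.75 FPKM in CCL3 libraries and 3.31 to 4.62 FPKM in control libraries. Of these, 3 of 3 tested markers were higher, Ccr7, Batf3 and Fscn1 (log2 fold changes 0.91, 0.88 and 1.11). The Fscn1 call was lost without control replicate 2 or CCL3 replicate 1 or 2 (adjusted p up to 0.0766, limma). It was also lost with TPM (adjusted p = 0.0559, limma) and with no filter on level (adjusted p = 0.0877, limma). After GC and length correction neither Batf3 nor Fscn1 passed (adjusted p = 0.2405 and 0.2789, limma). The defining markers Flt3, Zbtb46, Xcr1 and Clec9a stayed at or below 0.246 FPKM in every library. Markers of the megakaryocyte and erythroid list were also higher with CCL3, 4 of 5 tested (Itga2b, Gp9, Hba-a1 and Ppbp, log2 fold changes 1.39, 1.44, 1.10 and 1.72), at a summed 40.5 to 55.3 FPKM in CCL3 libraries and 20.2 to 38.1 FPKM in control libraries. That count was also 4 with TPM, and 3 after GC and length correction, where 5.5% and 13.3% of all tested genes were higher. The marker counts of this paragraph stand beside 18% of all tested genes higher and 14.5% lower with FPKM as deposited. The 8 macrophage markers summed to 10860 to 15370 FPKM in CCL3 libraries and 16860 to 28740 FPKM in control libraries. Of these, the lipopolysaccharide co-receptor gene Cd14 was lower under each of the 16 alternatives (log2 fold change -0.94 ± 0.18 SE, adjusted p = 0.00783, limma). The lysozyme gene Lyz2 was lower (-0.91 ± 0.26 SE, adjusted p = 0.0339, limma), but not without control replicate 1 or 2 or any 1 CCL3 library (adjusted p up to 0.111). The lysosomal glycoprotein gene Cd68 was higher (0.54 ± 0.13 SE, adjusted p = 0.0185, limma), but not without control replicate 1 (adjusted p = 0.0636) or 2 (adjusted p = 0.106), and with TPM its fold change was near 0 (adjusted p = 0.9996). Of tested markers of B cells 0 of 2 passed. The neutrophil marker Mmp8 (-0.58), 1 of 2 tested, and the monocyte marker Plac8 (-0.84) were lower and the stromal marker Col1a1 (0.82) higher. Without control replicate 2 these 3 did not pass (adjusted p = 0.158, 0.0600 and 0.115, limma), and for Mmp8 and Col1a1 leaving out some other libraries also ended the call. The part of these other cell types in the values below was not tested, and fewer cells of a type cannot be told apart from less RNA per cell in such bulk libraries.

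Few calls were made among the interferon-stimulated genes of CCL3-treated macrophages. Of the 41 members, 25 averaged 1 FPKM or more across all 6 libraries and were tested, and 16 were below that level. Among the 25, 1 member was higher with CCL3, the cytosolic DNA sensor gene Ifi204, and 0 were lower, at an adjusted p of 0.05 in limma fitted across all 9218 genes that reached the same level. Over all tested genes 18% were higher and 14.5% lower, or 32.4% in either direction. At an unadjusted p under 0.05, 5 members passed, 2 higher and 3 lower, against 46% of all tested genes. Their log2 fold changes were positive for 9 members and negative for 16, with a median of -0.15 beside 0.0066 for all tested genes. Libraries of the groups did not overlap for 4 tested members (16%), against 48.6% of all tested genes. In 2 of them, Ifi204 and Oas1a, all CCL3 libraries were above all control libraries, against 24.6% of tested genes, and in 2, Oas2 and Igtp, all were below, against 24%. Here and below, overlap of a gene's libraries was judged with FPKM as deposited. TPM and plain fragment totals gave a lower fold change for every tested member, and overlap was not counted under them.

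**Figure D1:**
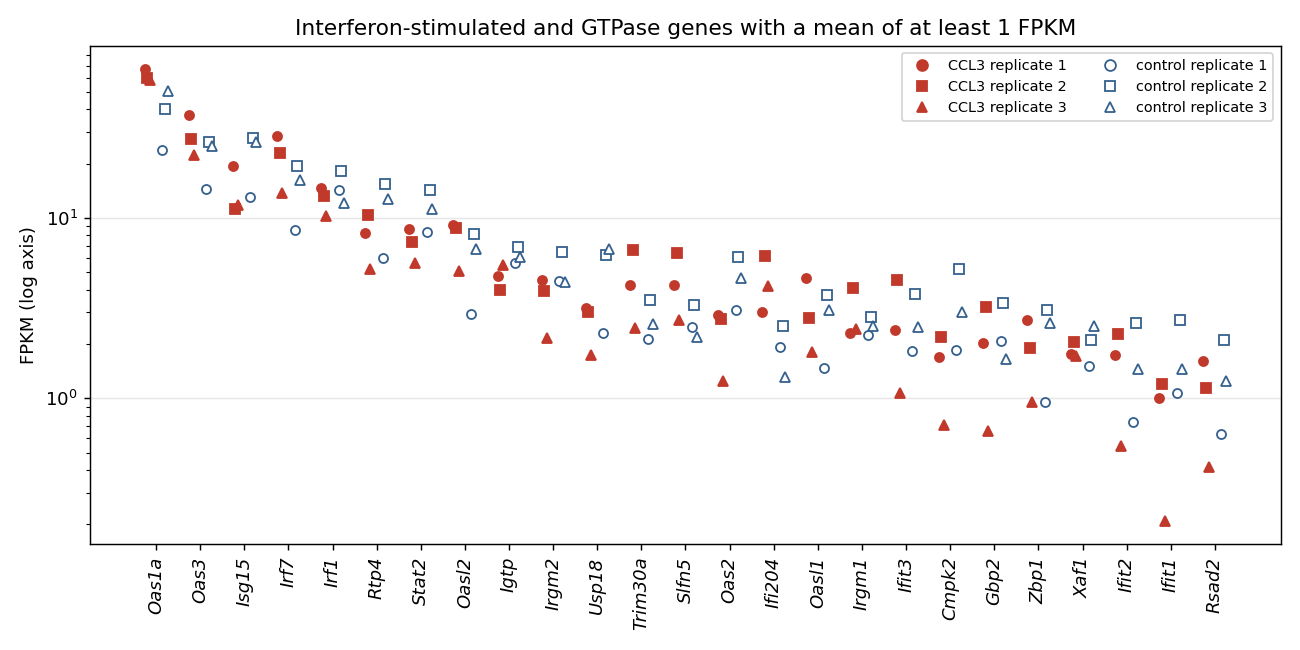
FPKM on a log axis of the 25 tested members, ordered by mean level, with 1 point per library; filled red symbols are CCL3 libraries and open blue symbols control libraries, and the shapes give the replicate. The groups are apart for 4 of the 25 genes (Ifi204, Oas1a, Oas2 and Igtp), and CCL3 replicate 3 is often the lowest point of its group.

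How many members were called, and the size of their median fold change, depended on how libraries were scaled. With TPM the median log2 fold change over all tested genes was -0.48, and plain fragment totals gave -0.28. Under these scalings 9 and 6 members were called lower and 0 higher, while 43.2% and 33.1% of all tested genes were called lower and 5.5% and 8.71% higher. Without control replicate 1, which changed several calls described next, 10.6% of all genes were higher and 7.33% lower. With a replicate block 23.9% were higher and 18.4% lower, and after correction for GC content and length, an alternative chosen after seeing the data, 13.3% and 13.5%. Relative to the median of all genes, 9 members lay above it with FPKM as deposited, 10 with TPM and 10 with plain totals. The members called lower with plain totals were Stat2, Isg15, Oas2, Cmpk2, Irgm2 and Igtp, and TPM added Irf1, Usp18 and Ifit1.

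**Figure D2:**
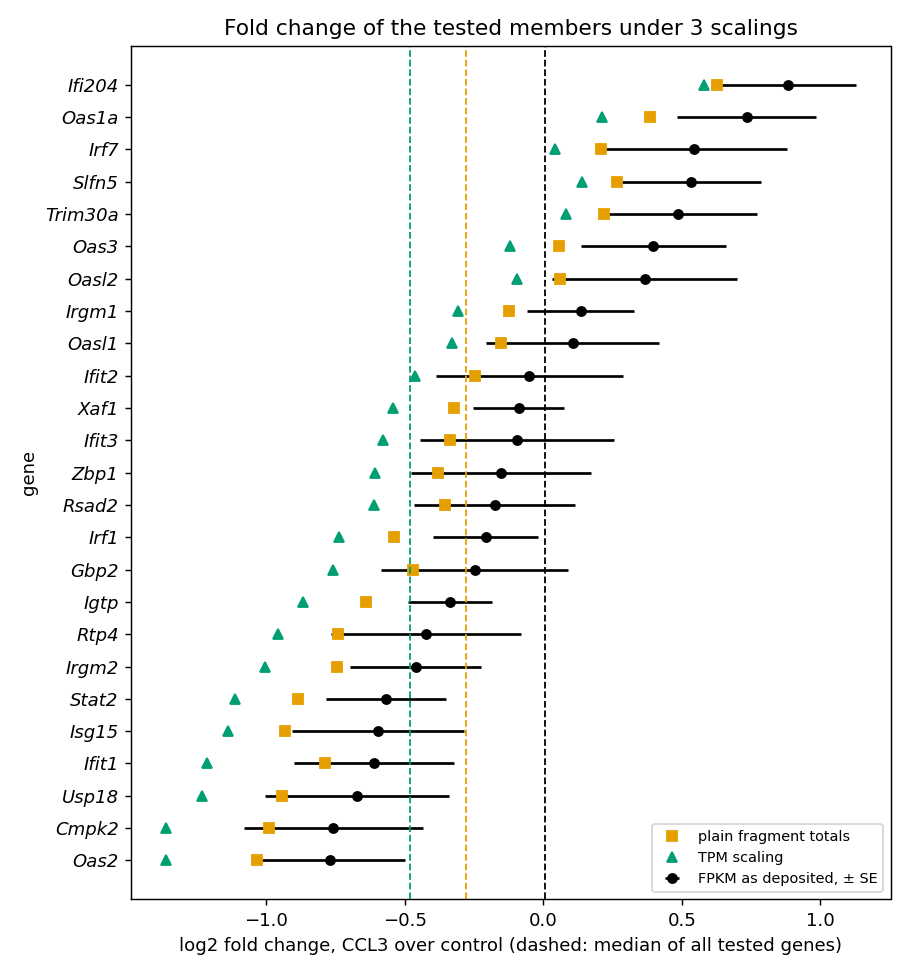
Log2 fold change, CCL3 over control, of the 25 tested members on the log2(value + 1) scale; black points with bars are FPKM as deposited ± SE, orange squares plain fragment totals and green triangles TPM. Dashed lines give the median of all tested genes under each scaling (0.0066, -0.28 and -0.48), and the points of both other scalings lie left of the black ones for every member.

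Sensors of nucleic acid included the 1 member past the threshold. Ifi204, whose product binds cytosolic DNA and belongs to a family of similar genes on chromosome 1 (ENSMUSG00000073489, chromosome 1, 173747293 to 173766943, mm10), had 3.00, 6.16 and 4.22 FPKM in CCL3 libraries 1 to 3 and 1.92, 2.51 and 1.31 FPKM in control libraries 1 to 3. All CCL3 libraries lay above all control libraries, with CCL3 replicate 2 the highest. The log2 fold change was 0.89 ± 0.24 SE (adjusted p = 0.0279, limma, n = 3 per group). Leaving out control replicate 1 or 3 ended the call (adjusted p = 0.0660 and 0.0556, limma), as did leaving out CCL3 replicate 2 or 3 (adjusted p = 0.0651 and 0.0645, limma). It was also lost with TPM or plain totals (adjusted p = 0.129 and 0.0795, limma) and with no filter on level (adjusted p = 0.0930, limma). Its relative Ifi205 had at most 12 fragments in any library, 8, 12 and 6 in CCL3 libraries and 5, 4 and 0 in control libraries. Reads of such similar genes may be split uncertainly. Zbp1, a sensor of left-handed nucleic acid that can trigger cell death, had 2.73, 1.90 and 0.957 FPKM in CCL3 libraries and 0.954, 3.08 and 2.63 FPKM in control libraries, which overlapped widely. Ifih1, which encodes the RNA sensor MDA5, was just below the tested level at 1.14, 1.31 and 0.777 FPKM in CCL3 libraries and 0.719, 1.05 and 0.619 FPKM in control libraries.

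The transcription factor genes differed in sign and none passed. Irf7, an amplifier of type I interferon production that is itself interferon-induced, had 28.6, 22.9 and 13.7 FPKM in CCL3 libraries 1 to 3 and 8.56, 19.3 and 16.2 FPKM in control libraries 1 to 3. CCL3 replicate 3 fell among the control libraries, and the log2 fold change was 0.55 ± 0.33 SE (adjusted p = 0.234, limma). Irf7 overlaps Phrf1 on the opposite strand (mean 7.73 FPKM), and whether counting used strand is not stated in those sources. Stat2, the subunit specific to type I and type III interferon signalling, had 8.64, 7.40 and 5.65 FPKM in CCL3 libraries and 8.40, 14.3 and 11.2 FPKM in control libraries. Only control replicate 1 reached down into the CCL3 range, and the log2 fold change was -0.57 ± 0.22 SE (adjusted p = 0.0759, limma). Without that library Stat2 was lower with CCL3 (adjusted p = 0.0496, limma), and without control replicate 2 it was farther from the threshold (adjusted p = 0.259, limma). Irf1, the early target of interferon-gamma, had 14.6, 13.3 and 10.3 FPKM in CCL3 libraries and 14.4, 18.2 and 12.2 FPKM in control libraries. These ranges overlapped and gave a log2 fold change of -0.21 ± 0.19 SE (adjusted p = 0.416, limma).

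Of the feedback inhibitors, Usp18 removes ISG15 from proteins and blocks the type I receptor, and Socs1 inhibits JAK kinases. Usp18 had 3.16, 3.03 and 1.73 FPKM in CCL3 libraries and 2.31, 6.23 and 6.71 FPKM in control libraries. Control replicates 2 and 3 were above every CCL3 library but control replicate 1 was not, and the difference missed the threshold at -0.67 ± 0.33 SE in log2 (adjusted p = 0.149, limma). Without control replicate 1 Usp18 was lower with CCL3 (adjusted p = 0.0218, limma), and without control replicate 2 it was farther from the threshold (adjusted p = 0.367, limma). Socs1 was below the tested level, with 0.615, 0.741 and 0.782 FPKM in CCL3 libraries and 0.579, 0.833 and 0.628 FPKM in control libraries, all within a narrow band.

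Among the 19 antiviral effectors 15 were tested and 0 passed, 6 with a positive and 9 with a negative fold change. Isg15, a ubiquitin-like protein attached to other proteins, had 19.5, 11.2 and 11.9 FPKM in CCL3 libraries 1 to 3 and 13.1, 27.8 and 26.3 FPKM in control libraries 1 to 3. Its log2 fold change was -0.60 ± 0.31 SE (adjusted p = 0.167, limma), and -0.93 without control replicate 1, where it passed as lower (adjusted p = 0.0384, limma). Without control replicate 2 Isg15 was farther from the threshold (adjusted p = 0.414, limma). The IFIT proteins bind viral RNA that lacks the host's cap modification. Ifit1 had 0.998, 1.21 and 0.208 FPKM in CCL3 libraries and 1.07, 2.72 and 1.46 FPKM in control libraries, the CCL3 replicate 3 value resting on 8 fragments. Ifit3 had 2.40, 4.50 and 1.07 FPKM in CCL3 libraries and 1.82, 3.79 and 2.49 FPKM in control libraries, with both the highest and the lowest value in the CCL3 group. Rsad2, which encodes viperin, had 1.61, 1.14 and 0.413 FPKM in CCL3 libraries and 0.633, 2.10 and 1.24 FPKM in control libraries. Neighbouring Cmpk2, a mitochondrial nucleotide kinase gene next to Rsad2 on chromosome 12, averaged 1.53 ± 0.754 FPKM with CCL3 and 3.36 ± 1.72 FPKM in control (SD, n = 3 each; log2 fold change -0.76 ± 0.32 SE, adjusted p = 0.103, limma). Ifit1, Ifit3 and Rsad2 had adjusted p values of 0.133, 0.852 and 0.666 in limma. Ifit2, Oasl1, Oasl2, Rtp4, Trim30a and Xaf1 had log2 fold changes between -0.42 (Rtp4) and 0.49 (Trim30a), with adjusted p from 0.217 to 0.921 (limma).

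Slfn5, a schlafen family member induced by type I interferon, had 4.26, 6.39 and 2.71 FPKM in CCL3 libraries and 2.49, 3.27 and 2.19 FPKM in control libraries. Only CCL3 replicate 3 lay within the control range (log2 fold change 0.53 ± 0.25 SE, adjusted p = 0.133, limma), and without that library Slfn5 was higher with CCL3 (adjusted p = 0.0405, limma). Without CCL3 replicate 2 it was farther from the threshold (adjusted p = 0.327, limma). Mx1 and Mx2, dynamin-like antiviral GTPase genes that are known to be defective in C57BL/6 mice, were below the tested level. Mx1 had 7, 4 and 8 fragments in CCL3 libraries and 18, 73 and 25 in control libraries, or 0.114, 0.0615 and 0.146 FPKM against 0.229, 0.916 and 0.309 FPKM. Mx2 had 15, 0 and 1 fragments in CCL3 libraries and 28, 72 and 21 in control libraries. Every CCL3 library was below every control library for both genes, on few fragments. In a fit with no filter on level their adjusted p values were 0.205 and 0.164 (limma). Ifit3b and Ifi44 had at most 33 and 26 fragments in a library. Ifi44 went the other way, at 0.141, 0.247 and 0.146 FPKM with CCL3 and 0.0471, 0.101 and 0.0687 FPKM in control. Groups did not overlap for 6 of the 16 members below the tested level. In Ifi44 and Ifi205 CCL3 was above control, and in Mx1, Mx2, Gbp4 and Serpina3g below. Among tested genes 48.6% did not overlap, and the share for all genes below that level was not computed.

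The 2′-5′ oligoadenylate synthetase genes, whose enzymes make the messenger that activates RNase L, lie close together on chromosome 5, and none of the 3 members passed the test. Oas1a, described after its values were seen, was the most abundant member (ENSMUSG00000052776, chromosome 5, 120896256 to 120907521, mm10), with 67.3, 59.4 and 58.5 FPKM in CCL3 libraries 1 to 3 and 23.9, 40.3 and 50.6 FPKM in control libraries 1 to 3. All 3 CCL3 libraries were above all control libraries, and the log2 fold change of 0.74 ± 0.25 SE missed the threshold (adjusted p = 0.0554, limma). Oas1a passed without control replicate 3 (adjusted p = 0.0141, limma) and was farther from the threshold without control replicate 1 (adjusted p = 0.125, limma). Oas2 had a negative fold change, with 2.90, 2.75 and 1.25 FPKM in CCL3 libraries and 3.09, 6.07 and 4.63 FPKM in control libraries. These groups did not overlap either, but control replicate 1 was close to the CCL3 libraries and the log2 fold change of -0.77 ± 0.27 SE missed the threshold (adjusted p = 0.0605, limma). Without that library Oas2 passed as lower (adjusted p = 0.0433, limma), and without control replicate 2 it was farther from the threshold (adjusted p = 0.196, limma). Oas3, which lies between them, averaged 28.9 ± 7.48 FPKM with CCL3 and 21.9 ± 6.54 FPKM in control (SD, n = 3 each; adjusted p = 0.267, limma).

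Ratios of these genes within a library are unaffected by any scaling that applies 1 factor per library, which quantile normalization does not. The ratio of Oas1a to Oas2 FPKM was 23.3, 21.6 and 46.6 in CCL3 libraries and 7.74, 6.64 and 10.9 in control libraries. Oas3 to Oas2 gave 12.8, 9.92 and 17.8 in CCL3 libraries and 4.66, 4.34 and 5.40 in control libraries. Both ratios were higher in every CCL3 library than in any control library, whereas Oas1a to Oas3 overlapped between groups (1.82, 2.18 and 2.62 with CCL3, 1.66, 1.53 and 2.03 in control). The separation of Oas1a to Oas2 had to follow, because Oas1a was above and Oas2 below control in every CCL3 library. The ratios were chosen after the values were seen and were not tested. How often ratios of other gene pairs separate the groups was not computed. Close relatives of Oas1a, also named after their values were seen, included calls in both directions. Oas1g was higher with CCL3 (log2 fold change 1.001 ± 0.23 SE, adjusted p = 0.0157, limma; not called with TPM, adjusted p = 0.104, or with no filter, adjusted p = 0.0583) and Oas1c lower (log2 fold change -0.62 ± 0.16 SE, adjusted p = 0.0236, limma). Oas1c no longer passed when control replicate 2 (adjusted p = 0.106, limma), CCL3 replicate 2 (adjusted p = 0.0534, limma) or CCL3 replicate 3 (adjusted p = 0.0754, limma) was left out, nor after quantile normalization (adjusted p = 0.0526, limma) or with no filter (adjusted p = 0.0726, limma). Reads shared between such similar copies may be assigned to any of them.

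Guanylate-binding proteins and immunity-related GTPases attack the vacuoles of intracellular pathogens. Guanylate-binding protein genes were at low levels in both groups. The tested immunity-related GTPase genes averaged 2.74 to 5.47 FPKM over the 6 libraries. Of the 8 guanylate-binding protein genes 1 was tested, Gbp2, with 2.03, 3.22 and 0.658 FPKM in CCL3 libraries 1 to 3 and 2.07, 3.36 and 1.66 FPKM in control libraries 1 to 3. Its groups overlapped (log2 fold change -0.25 ± 0.34 SE, adjusted p = 0.595, limma), and CCL3 replicate 3 was the lowest library. Gbp7 had 0.176, 0.415 and 0.0246 FPKM in CCL3 libraries and 0.103, 0.0931 and 0.0333 FPKM in control libraries, from at most 40 fragments. Gbp3, Gbp5, Gbp8 and Gbp9 had between 4 and 69 fragments per library. Gbp4 was listed at 0 fragments in the 3 CCL3 libraries and had 3, 6 and 1 in control libraries, and Gbp6 had fragments in control replicate 3 only, 3 of them. Gbp4, Gbp8 and Gbp9 overlap on the same strand, so their reads are uncertain.

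Of the 4 immunity-related GTPases 3 were tested and 0 passed. Igtp, which encodes IRGM3, had 4.76, 3.97 and 5.45 FPKM in CCL3 libraries and 5.64, 6.86 and 6.11 FPKM in control libraries. The groups did not overlap, with a log2 fold change of -0.34 ± 0.15 SE (adjusted p = 0.119, limma). Irgm1, a regulator of autophagy and of other GTPases of the family, had 2.31, 4.11 and 2.41 FPKM in CCL3 libraries and 2.25, 2.81 and 2.51 FPKM in control libraries, where only CCL3 replicate 2 stood out (log2 fold change 0.14 ± 0.19 SE, adjusted p = 0.613, limma). Irgm2, whose record overlaps Igtp on the same strand, averaged 3.54 ± 1.22 FPKM with CCL3 and 5.15 ± 1.18 FPKM in control (SD, n = 3 each; adjusted p = 0.164, limma). Iigp1 had at most 7 fragments in a library and the serine protease inhibitor gene Serpina3g at most 5.

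Libraries of one group differed more in these genes than in most. The median standard deviation within groups was 0.45 on the log2(FPKM + 1) scale for the 25 tested members and 0.21 for all tested genes, and it was also 0.21 for the 7711 tested genes within the members' range of mean FPKM. Within the CCL3 group, replicate 3 was the lowest library for 21 of 25 members, against 31.1% of all tested genes. Within the control group, replicate 1 was the lowest for 20 of 25 members and replicate 2 the highest for 22 of 25, against 36.8% and 25.4% of all tested genes. The median deviation from a gene's mean over the 6 libraries was 0.089, 0.059 and -0.50 in CCL3 libraries 1 to 3 and -0.36, 0.45 and 0.083 in control libraries 1 to 3, whereas the median over all tested genes lay between -0.017 and 0.034. So the 2 libraries with the lowest interferon-stimulated gene levels were in different groups. Of 45 tested interferon-stimulated genes outside the 41, 28 were lowest in CCL3 replicate 3 among CCL3 libraries and 34 lowest in control replicate 1 among control libraries. Control replicate 1 had the most recovered fragments (18609737) and CCL3 replicate 3 the fewest (17399194); the part of depth was not tested. Recovered fragments divided by the library-wide divisor that FPKM used came to 1.10, 1.05 and 1.20 in CCL3 libraries and 0.895, 0.851 and 0.868 in control libraries.

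**Figure D3:**
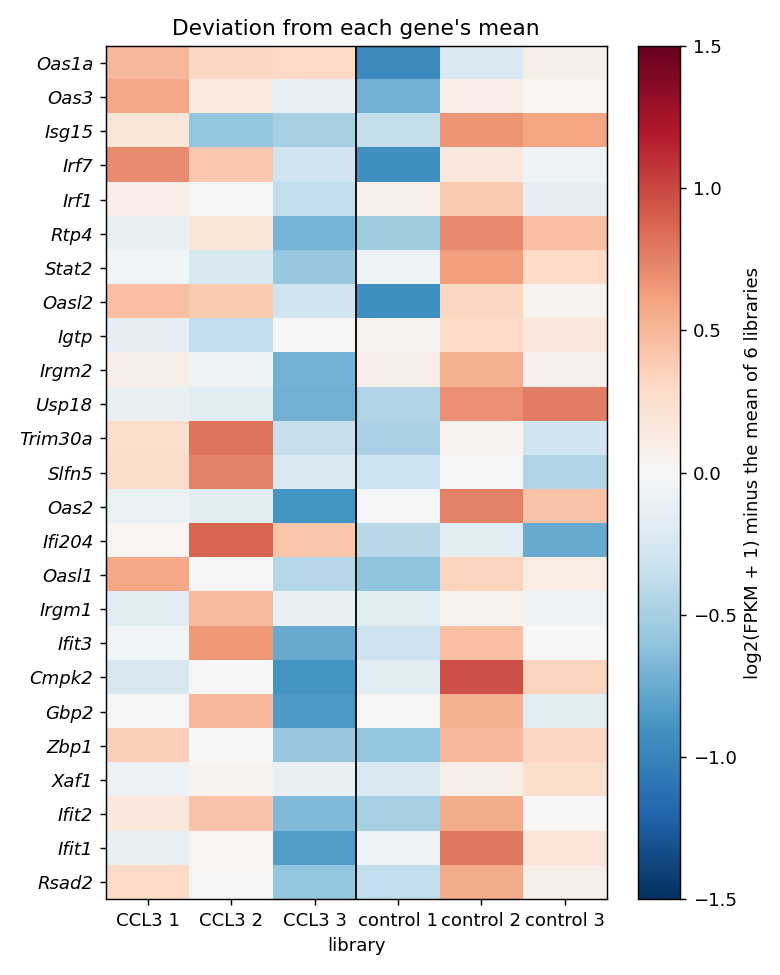
Deviation of each library from the gene's mean over 6 libraries, in log2(FPKM + 1), for the 25 tested members in rows, with CCL3 libraries left of control libraries. Blue cells fill much of CCL3 replicate 3 (median -0.50) and control replicate 1 (median -0.36), and red cells control replicate 2 (median 0.45).

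Upstream of the members, the gene of the type I receptor chain Ifnar1 was lower with CCL3. Ifnar1 had 9.96, 8.58 and 6.96 FPKM in CCL3 libraries 1 to 3 and 18.3, 20.0 and 15.3 FPKM in control libraries 1 to 3. The groups were far apart (log2 fold change -0.996 ± 0.17 SE, adjusted p = 0.00549, limma), and the call held under each of the 16 alternatives run, with log2 fold changes from -1.56 to -0.78. The partner chain Ifnar2 had 33.3, 32.9 and 29.6 FPKM in CCL3 libraries and 31.5, 30.5 and 25.4 FPKM in control libraries, which overlapped (log2 fold change 0.13 ± 0.14 SE, adjusted p = 0.485, limma). The difference between the chains' fold changes was not tested. Ifngr1 had 51.7, 67.8 and 40.7 FPKM in CCL3 libraries and 38.8, 40.4 and 28.4 FPKM in control libraries (adjusted p = 0.0845, limma), and Ifngr2 44.5, 30.3 and 24.9 FPKM in CCL3 libraries and 44.7, 42.8 and 37.9 FPKM in control libraries (adjusted p = 0.213, limma). The groups of Ifngr1 did not overlap, by a narrow margin (40.7 against 40.4 FPKM). Among all tested genes 48.6% did not overlap. Of 5 tested receptor genes 1 was lower and 0 higher, or 3 and 0 with either TPM or plain totals. Over all tested genes 14.5% were lower and 18% higher, with TPM 43.2% and 5.5%, and with plain totals 33.1% and 8.71%.

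All 20 interferon genes looked up, among them Ifnb1 and Ifng, were listed at 0 fragments in all 6 libraries, where 3 fragments would have been 0.108 to 0.369 FPKM depending on gene and library. Trex1, a DNA exonuclease gene of wide expression noted after its values were seen, was listed at 0 as well, so a listed 0 may not always be an absence of transcripts. Of 6 tested signal transducer genes 0 passed, or 2 as lower with either TPM or plain totals, beside 43.2% and 33.1% of all tested genes. Irf9 had 11.003, 8.95 and 8.01 FPKM in CCL3 libraries and 9.26, 12.95 and 12.7 FPKM in control libraries (log2 fold change -0.29 ± 0.18 SE, adjusted p = 0.238, limma). The CCL3 and control libraries overlapped.

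**Figure D4:**
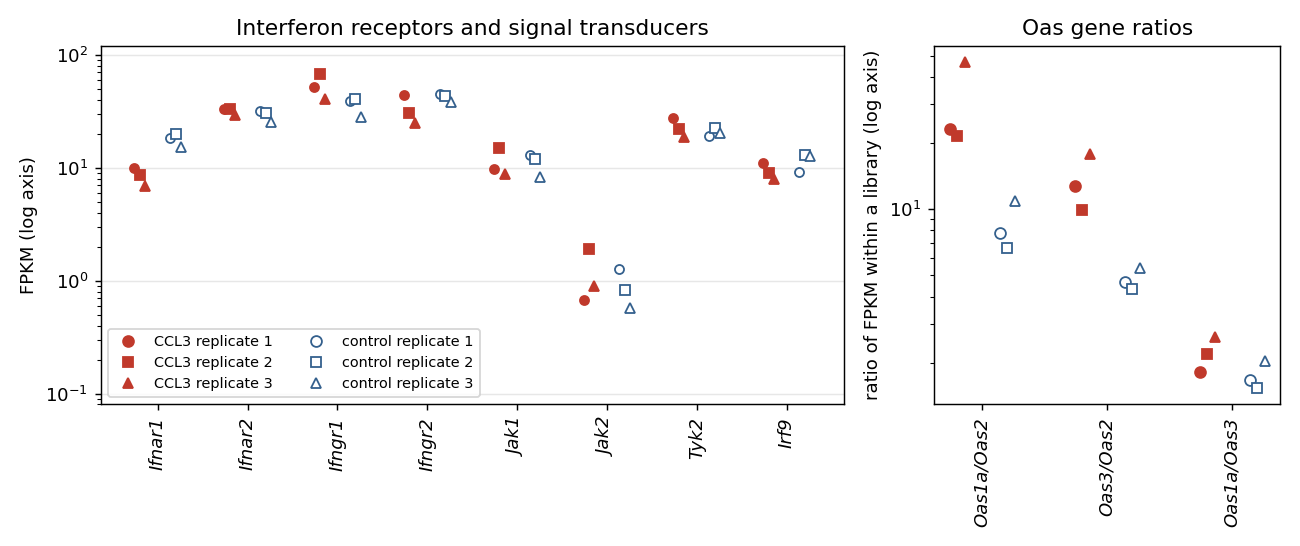
Left, FPKM on a log axis of interferon receptor and signal transducer genes, 1 point per library, filled red for CCL3 and open blue for control. Right, ratios of Oas gene FPKM within each library on a log axis. Ifnar1 and the ratios of Oas1a and Oas3 to Oas2 separate the groups, and Ifngr1 does so by a narrow margin. For Oas1a to Oas2 this follows from the single genes, which separate the groups in opposite directions.

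Of 16 tested sensors and adaptors outside the set 3 were higher and 1 was lower, beside 18% and 14.5% of all tested genes. With TPM 0 were higher and 4 lower, beside 5.5% and 43.2% of all tested genes, and with plain totals 0 and 3, beside 8.71% and 33.1%. The signalling adaptor gene Traf3 was lower (log2 fold change -0.77 ± 0.16 SE, adjusted p = 0.0114, limma; adjusted p = 0.0565 without control replicate 2). The interferon regulatory factor gene Irf3 was higher (0.73 ± 0.17 SE, adjusted p = 0.0148, limma), but not without control replicate 1 (adjusted p = 0.0553) or 2 (adjusted p = 0.0727). The Toll adaptor gene Ticam1 (0.49 ± 0.14 SE, adjusted p = 0.0295, limma) and Irf5 (0.39 ± 0.12 SE, adjusted p = 0.0465, limma) were higher with FPKM as deposited, and with TPM their fold changes were -0.017 and -0.15. Leaving out any library but CCL3 replicate 3 ended the Ticam1 call (adjusted p up to 0.106), and leaving out any library ended that of Irf5 (adjusted p up to 0.172).

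Among 10 tested inhibitors of the pathway 1 was higher and 2 were lower, beside 18% and 14.5% of all tested genes. With TPM the counts were 0 and 2, beside 5.5% and 43.2%, and with plain totals also 0 and 2, beside 8.71% and 33.1%. The phosphatase gene Ptpn11 was lower (log2 fold change -0.76 ± 0.14 SE, adjusted p = 0.0075, limma) under each of the 16 alternatives. The STAT inhibitor gene Pias2 was lower (-0.61 ± 0.18 SE, adjusted p = 0.0348, limma), though not without control replicate 1 or 2 or CCL3 replicate 1 or 3 (adjusted p up to 0.126). Its relative Pias3 was higher (0.44 ± 0.13 SE, adjusted p = 0.037, limma), a call also lost without any one of those same libraries (adjusted p up to 0.149) and with TPM, where its fold change was -0.036.

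Of 58 further interferon-stimulated genes with deposited values, 45 were tested, 6 higher and 5 lower, beside 18% and 14.5% of all tested genes. With TPM the counts were 2 and 18, beside 5.5% and 43.2%, and with plain totals 5 and 11, beside 8.71% and 33.1%. The rises with the smallest p were Shisa5 (log2 fold change 0.87 ± 0.13 SE, adjusted p = 0.00425, limma), the virus tether gene Bst2 (0.92 ± 0.17 SE, adjusted p = 0.00691, limma), the ISG15-conjugating enzyme gene Ube2l6 (1.16 ± 0.22 SE, adjusted p = 0.00788, limma) and the membrane restriction factor gene Ifitm2 (0.88 ± 0.18 SE, adjusted p = 0.00942, limma). With TPM, Ube2l6 passed (adjusted p = 0.0442, limma) and Shisa5, Bst2 and Ifitm2 did not (adjusted p = 0.0697, 0.0802 and 0.179, limma). Ube2l6 had 72.7, 70.6 and 76.6 FPKM in CCL3 libraries and 22.6, 34.3 and 43.1 FPKM in control libraries. These groups lay well apart, while those of Isg15 itself overlapped. The remaining rises were Oas1g and the schlafen gene Slfn9 (log2 fold change 0.98). Slfn9 also passed with TPM (log2 fold change 1.06, adjusted p = 0.0138, limma), and was not tested with a minimum mean of 5 FPKM. The 5 falls, named after their values were seen, were Oas1c (-0.62), Trim56 (-0.53), Slfn2 (-0.83), Tdrd7 (-0.77) and Helz2 (-1.23). Without control replicate 2 none of these 5 passed (adjusted p = 0.106, 0.176, 0.0760, 0.0856 and 0.0867, limma). Some of them were also lost without control replicate 1 (Trim56, adjusted p = 0.0978, and Tdrd7, 0.0581), CCL3 replicate 1 (Trim56, 0.0674), CCL3 replicate 2 (Helz2, 0.0695) or CCL3 replicate 3 (Trim56, 0.131, Tdrd7, 0.0522, and Helz2, 0.0708). Of 9 other interferon-inducible GTPases 2 were tested and 0 passed, Ifi47 (log2 fold change -0.25) and Irgq (0.026).

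Of 17 other targets of interferon-gamma 13 were tested, 4 higher and 2 lower, beside 18% and 14.5% of all tested genes. With TPM the counts were 0 and 2, beside 5.5% and 43.2%, and with plain totals 2 and 2, beside 8.71% and 33.1%. The 4 higher were the immunoproteasome genes Psmb8, Psmb9 and Psmb10 and the peptide transporter gene Tap1 (log2 fold changes 0.96, 0.83, 0.81 and 0.71). The call of Psmb10 held with each library left out. Those of Psmb8, Psmb9 and Tap1 were lost without control replicate 1 (adjusted p = 0.0587, 0.0630 and 0.0580, limma) or control replicate 2 (adjusted p = 0.0645, 0.0694 and 0.0530, limma), and that of Psmb9 without CCL3 replicate 3 (adjusted p = 0.0574, limma). The 2 lower, named after their values were seen, were Nlrc5 (-0.76) and Psme2 (-0.64). Without control replicate 2 neither passed (adjusted p = 0.0913 and 0.0852, limma), nor without CCL3 replicate 3 (adjusted p = 0.0528 and 0.0665, limma). Nlrc5 was also lost without control replicate 1 (adjusted p = 0.0574, limma) and Psme2 without CCL3 replicate 1 (adjusted p = 0.0641, limma). Median log2 fold changes with FPKM as deposited were -0.22 for the tested receptor genes, -0.059 for the signal transducers, 0.20 for the sensors and adaptors, 0.13 for the inhibitors, 0.037 for the further interferon-stimulated genes, -0.11 for the other GTPases and 0.31 for the other interferon-gamma targets, beside 0.0066 over all tested genes.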

How the data were processed

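RNA of 3 CCL3 and 3 control libraries had been column-purified and made into SMARTer libraries, per the labels' protocols, and, per the submitters' processing notes, reads were placed on mm10. The authors deposited FPKM values with gene lengths and positions. Aligner, counting tool, strand use and treatment of multiply matching reads were not given in the sources used here. FPKM times length was a whole multiple of 1 step in every library (100% of values, tolerance 0.02), which gave fragments; no count model was used. Member positions were those of GENCODE M21 for 40 of 41 genes. Values were analysed as log2(FPKM + 1), so fold changes of low genes are understated, with limma 3.58.1 in R 4.3.3 (variance trend, two-sided, Benjamini-Hochberg over 9218 genes averaging 1 FPKM or more, threshold 0.05). Between libraries of a group the chi-square of fragments per degree of freedom was 19.6 to 89.7, so none were merged. Same-numbered libraries were not taken as pairs. The steps were run on simulated data with known changes, independent genes and a common dispersion. Those data lack the members' shifts of whole libraries, so they do not measure error for this set. Members, gene lists and tests were chosen with earlier results of these data known. Genes named were all members past the threshold, a list of index members, the first few of each pathway list past the threshold by p and genes of the interferon receptors and transducers; others are marked in the text. Alternatives were another pseudocount, other filters, 4 other scalings, no variance trend, a replicate block, each library left out, and a GC and length correction added after the data had been seen. One gene of the naming rule is not reported here.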

Additional observations from a re-analysis of the deposited data

How the results depend on the processing

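The count of members higher with CCL3, 1 with FPKM as deposited, was 0 with no filter, 0 with a minimum mean of 5 FPKM, 0 with TPM, 0 with plain totals and 2 after GC and length correction (Ifi204 and Slfn5), and 0 to 1 when a library was left out. With a minimum mean of 5 FPKM only 9 members were tested, and Ifi204 was not among them. The count lower, 0, became 9 with TPM and 6 with plain totals, where the median of all genes also fell, and 0 to 4 with a library left out. The 4 were Stat2, Usp18, Isg15 and Oas2, without control replicate 1. The median log2 fold change of the tested members was -0.61 with TPM and -0.31 to 0.098 with a library left out. Genes past the threshold numbered 4493 with TPM and 1152 to 3166 with a library left out, beside 2990. They numbered 2007 with no filter and 2135 with a minimum mean of 5 FPKM, where other numbers of genes were tested. Replicate numbers are shared between groups, but nothing in the labels says that they pair, so same-numbered libraries were not taken as pairs. Deviations of same-numbered libraries correlated at -0.063, 0.387 and 0.503, and those of differently numbered libraries at -0.541 to 0.413. These values do not decide whether the libraries pair. With a replicate block 3 members were higher (Ifi204, Oas1a and Slfn5), 1 was lower (Cmpk2) and 3897 genes passed. Members that did not pass and changed sign were Oas3 (-0.12), Oasl1 (-0.33), Oasl2 (-0.095) and Irgm1 (-0.31) with TPM, Oasl1 (-0.15) and Irgm1 (-0.12) with plain totals, Ifit2 (0.052), Ifit3 (0.029) and Xaf1 (0.033) after quantile normalization, and Ifit2 (0.072), Ifit3 (0.065), Oasl1 (-0.28), Rsad2 (0.023) and Xaf1 (0.17) after GC and length correction. With a library left out, fold changes that changed sign ranged over -0.17 to 0.35 for Oasl1, -0.48 to 0.098 for Zbp1, -0.31 to 0.27 for Ifit2, -0.45 to 0.26 for Ifit3, -0.41 to 0.072 for Rsad2, -0.22 to 0.025 for Xaf1, -0.066 to 0.25 for Irgm1 and -0.55 to 0.12 for Gbp2. Causes of these changes were not tested, and the shift of the median is given as a description only. The 16 members below 1 FPKM had at most 184 fragments in a library; in the fit with no filter, which included them, their lowest adjusted p was 0.0825 (Ifi205, limma).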
